A study of Mus musculus with 36 samples.

Results

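Lysosomal enzymes and lysosomal membrane proteins were represented by 34 genes, taken by gene name from the 24781 genes of the deposited count table. By role these were 10 proteases and peptidases (*Ctsa*, *Ctsb*, *Ctsc*, *Ctsd*, *Ctsh*, *Ctsl*, *Ctss*, *Ctsz*, *Lgmn* and *Tpp1*), 7 glycosidases (*Hexa*, *Gaa*, *Gusb*, *Man2b1*, *Gla*, *Glb1* and *Neu1*) and 7 genes of lipid breakdown and lipid export (*Lipa*, *Asah1*, *Smpd1*, *Ppt1*, *Psap*, *Npc1* and *Npc2*). A further 8 encode membrane proteins (*Lamp1*, *Lamp2*, *Cd63*, *Cd68*, *Laptm4a*, *Laptm5*, *Scarb2* and *Mcoln1*), and the remaining 2 are *Grn*, which encodes progranulin, and *Lyst*, a regulator of lysosome size and trafficking. Lysosomes are acidic organelles in which soluble hydrolases digest material delivered by phagocytosis, endocytosis and autophagy, while membrane proteins protect the organelle, carry digestion products out and control its ion content. Macrophages are rich in lysosomes and use them to degrade engulfed cells and to cut antigens for presentation, and cytotoxic T cells keep their killing granules in lysosome-related compartments.

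The cells came from tumours of MC38, a mouse colon adenocarcinoma line inoculated intradermally, and were sorted on day 7 as tumour-associated macrophages (TAMs, CD45+CD11b+F4/80 high) or as CD8+ T cells (CD45+TCRβ+CD8+). Each of the 36 libraries held polyadenylated RNA of 100 cells of 1 mouse, and each cell type had 3 groups of 6 libraries. Molecules were counted by a molecular barcode attached at the poly(A) tail. WT mice were C57BL/6J or C57BL/6N and *muMt*-/- mice C57BL/6J, and which of the 2 gave the WT libraries is not given in the sources used here. The mice were of both sexes and 2 to 5 months old across the study.

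The WT group had intact B cells and no treatment by its label. The *muMt*-/- group carried a germline mutation that stops B cell maturation in the whole animal, also with treatment given as none. The GABA-treated *muMt*-/- group had the same mutation and an implanted pellet that releases GABA (γ-aminobutyric acid, a neurotransmitter that B cells can also make). For the first 2 groups the labels give no treatment, whereas the study describes their TAMs as taken from mice with placebo pellets. The comparison of *muMt*-/- with WT asks what differs in tumours without B cells, and that of GABA-treated with untreated *muMt*-/- mice asks what GABA changes in them.

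Depth differed between the groups. WT TAM libraries held 206394 to 304100 molecules (median 242756), *muMt*-/- TAM libraries 100254 to 253608 (median 149960) and GABA-treated TAM libraries 151856 to 262606 (median 192775). CD8+ T cell libraries were shallower, at 22896 to 76898 molecules in WT (median 42065.5), 51064 to 77839 in *muMt*-/- (median 67121.5) and 65356 to 98015 with GABA (median 80283). The 34 lysosomal genes together gave 4114 to 7652 molecules per WT TAM library (median 4995.5) but only 70 to 313 per WT CD8+ library (median 119.5), so single genes in CD8+ T cells rest on few molecules.

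Markers of the sorted cell type exceeded those of the other in all TAM libraries and in all but 2 CD8+ libraries. In every TAM group 20 of 20 macrophage markers were detected with *Apoe* the most abundant, and their sum ran from 16565 to 20727 CPM (molecules per 1000000 counted in the library) in WT TAMs (median 19457), from 14006 to 18064 in *muMt*-/- TAMs (median 15298) and from 10925 to 18232 with GABA (median 17049). T cell markers summed to at most 72.4 CPM in a TAM library and to 2393 to 8520 in CD8+ libraries, where 12 of 12 were detected in each group with *Ms4a4b* the most abundant. The B cell genes *Cd79a* and *Pax5* were at 0 in all 6 groups. Other B cell markers gave few molecules: *Cd79b* had 6, 4 and 9 in WT, *muMt*-/- and GABA-treated TAMs and 5 in GABA-treated CD8+ T cells, and *Cd22* had 1 in WT and 1 in *muMt*-/- CD8+ T cells. Markers of neutrophils stayed at or below 252 CPM, those of dendritic cells at or below 76.5 in TAMs, where *Cd209a* was at 0, and those of NK cells at or below 13.3 in TAMs. The dendritic and NK lists reached 554 and 949 CPM in CD8+ libraries through *Ccr7* and *Klrd1*, which T cells also express. Genes of tumour and stromal cells, led by *Col3a1*, reached 5290 CPM in 1 WT TAM library while *Epcam* was at 0 in all TAMs. Macrophage markers were also detected in CD8+ libraries. Their sum was 0 to 1682 CPM in WT (median 321, 17 of 20 detected, *Fcer1g* the most abundant and *Adgre1*, *Mertk* and *Mrc1* at 0), 883 to 6549 in *muMt*-/- (median 1263, 20 of 20, led by *Cd14*) and 275 to 3826 with GABA (median 2078, 20 of 20, led by *Fcer1g*). They exceeded the T cell markers in *muMt*-/- replicate 1 (6549 against 2393 CPM) and GABA-treated replicate 1 (3826 against 3244).

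The lysosomal genes made up a sizeable share of TAM transcripts. In WT TAMs their sum was 2.14% ± 0.233 of all molecules (SD, n = 6), of which proteases contributed 1.24% ± 0.137, lipid genes 0.375% ± 0.0643, membrane proteins 0.32% ± 0.0182, *Grn* with *Lyst* 0.106% ± 0.0127 and glycosidases 0.0945% ± 0.00942. Levels of different genes were compared per kilobase of the longest coding transcript, which sets long transcripts lower because only the poly(A) end was counted. On that scale *Ctss*, a cysteine cathepsin that trims the invariant chain of MHC class II, led WT TAMs with a mean of 561 normalized molecules per kilobase. *Ctsc*, the dipeptidyl peptidase that activates granule serine proteases, followed with 199 per kilobase, and *Psap*, the precursor of the saposins that help sphingolipid hydrolases, with 152. *Grn* (84.0 per kilobase) and *Lgmn*, an asparaginyl endopeptidase (81.8), came next, then *Ctsz* (73.4) and *Lamp1* (71.7), a heavily glycosylated protein of the lysosomal membrane. At the low end stood *Gaa*, the acid α-glucosidase (1.51 per kilobase), *Smpd1*, the acid sphingomyelinase (0.701), *Mcoln1*, a calcium channel (0.644), and *Lyst* (0.165), whose longest coding transcript has 13181 bases. The order rests on this division: undivided, the means were 310 for *Ctsb*, 5.47 for *Gaa*, 2.17 for *Lyst*, 1.69 for *Smpd1* and 1.33 for *Mcoln1*. Of the 34 genes, 8 overlap another coding gene: *Ctsa* with *Neurl2* and *Pltp*, *Ctsb* with *Fdft1*, *Ctsz* with *Nelfcd*, *Hexa* with *Tmem202*, *Glb1* with *Tmppe*, *Asah1* with *Frg1*, *Ppt1* with *Cap1* and *Npc1* with *Rmc1*. Whether the counting used strand is not given in the sources used here, so their values are uncertain to that extent.

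**Figure D1:**
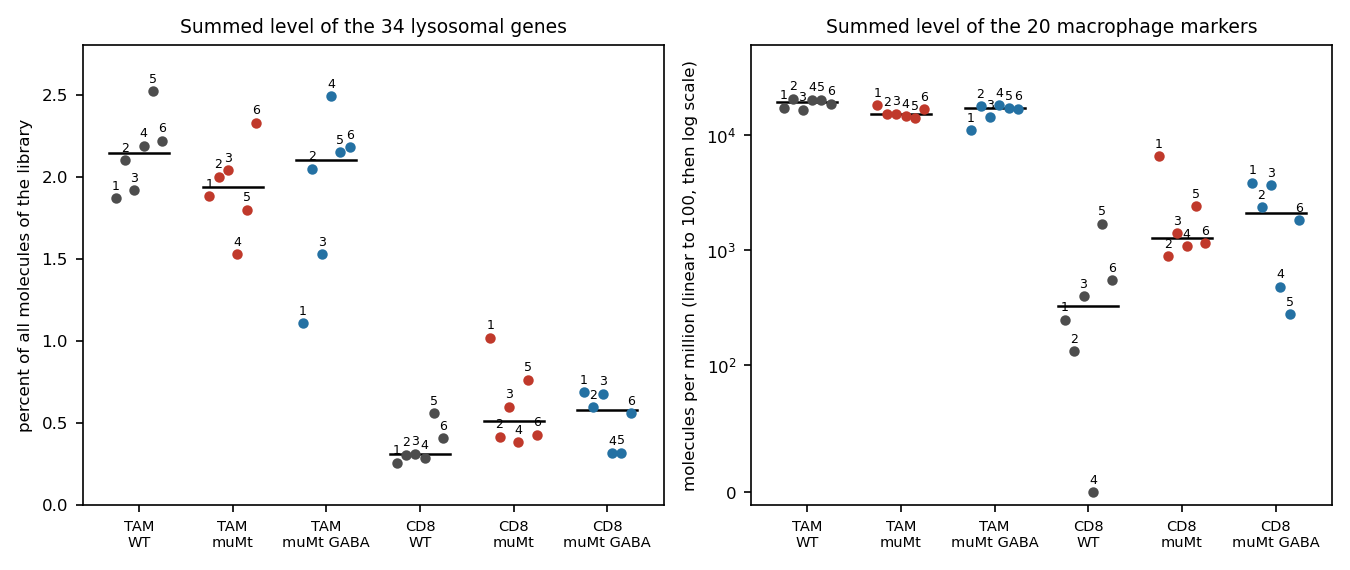
Summed level of the 34 lysosomal genes as percent of all molecules (left) and of 20 macrophage markers in CPM (molecules per 1000000) on an axis that is linear to 100 and logarithmic above (right). Each point is a library with its replicate number and each line a group median of 6 libraries; the lysosomal sum lies at 1.11% to 2.52% in TAMs and at 0.259% to 1.02% in CD8+ T cells.

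Most lysosomal genes were higher in TAMs than in CD8+ T cells of WT tumours, which shows how each gene is divided between the sorted cell types before B cells are removed. Of 33 tested, 28 were higher in TAMs by edgeR at an adjusted p under 0.05, where 16.8% of all 8477 genes tested were, and 0 were lower, where 5.99% of all genes were. Before adjustment *Lyst* alone was lower with p under 0.05. The median log2 difference of the lysosomal genes was 2.38 against 0.36 over all genes tested with TMM scaling, and 2.23 against 0.20 with DESeq2 size factors. Proteases were higher in 10 of 10 (median 3.34), glycosidases in 5 of 7 (median 2.32), lipid genes in 6 of 7 (median 2.24) and membrane proteins in 6 of 7 tested (median 2.01). *Mcoln1* was not tested, with 11 molecules in WT TAMs and 3 in WT CD8+ T cells, a ratio per molecule sequenced of 0.656 (95% exact interval 0.173 to 3.66). The exact intervals, here and below, pool the molecules of a group and cover counting error only.

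*Lgmn* had the largest difference between the cell types. It was counted 1295 times in WT TAMs and 2 times in WT CD8+ T cells, a ratio of 116 (95% exact interval 32.0 to 958), and the fitted log2 difference was 6.98 (SE 0.61, adjusted p = 7.08e-14). Both CD8+ molecules came from replicate 6, without which the value was 9.93, and over the alternatives it ran from 6.68 upward to that value. *Grn* followed at 5.09 (SE 0.48, adjusted p = 8.69e-13) and *Cd68*, a macrophage sialomucin, at 4.56 (SE 0.42, adjusted p = 4.73e-13). Among the genes with fewer molecules, *Gla*, the α-galactosidase A, had 76 molecules against 3, a ratio of 4.54 (95% exact interval 1.49 to 22.5). This interval and that of *Lgmn* leave out variation between mice. The smallest differences among the proteases belonged to *Ctsd*, an aspartic protease (1.29), and *Ctsl* (1.5). Genes outside the call were *Gaa* (0.28), *Glb1* (0.32), *Laptm5* (0.36, adjusted p = 0.199), *Smpd1* (-1.27, adjusted p = 0.268) and *Lyst* (-1.57, SE 0.61, adjusted p = 0.0533). Over the alternatives the adjusted p of *Lyst* ran from 0.0240 to 0.433, and without any scaling between the cell types its value was 0.48 and that of *Smpd1* 0.75. Without scaling 8084 genes were higher and 136 lower of 8989 tested, against 1420 and 508 of 8477 with it, so the scaling sets the split between directions. *Laptm5*, a lysosomal adaptor that also lowers antigen receptor levels in lymphocytes, was the member of its role nearest to 0. Whether TAMs and CD8+ T cells of a replicate number came from the same mouse is not given in the sources used here, so the libraries were treated as independent.

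**Figure D2:**
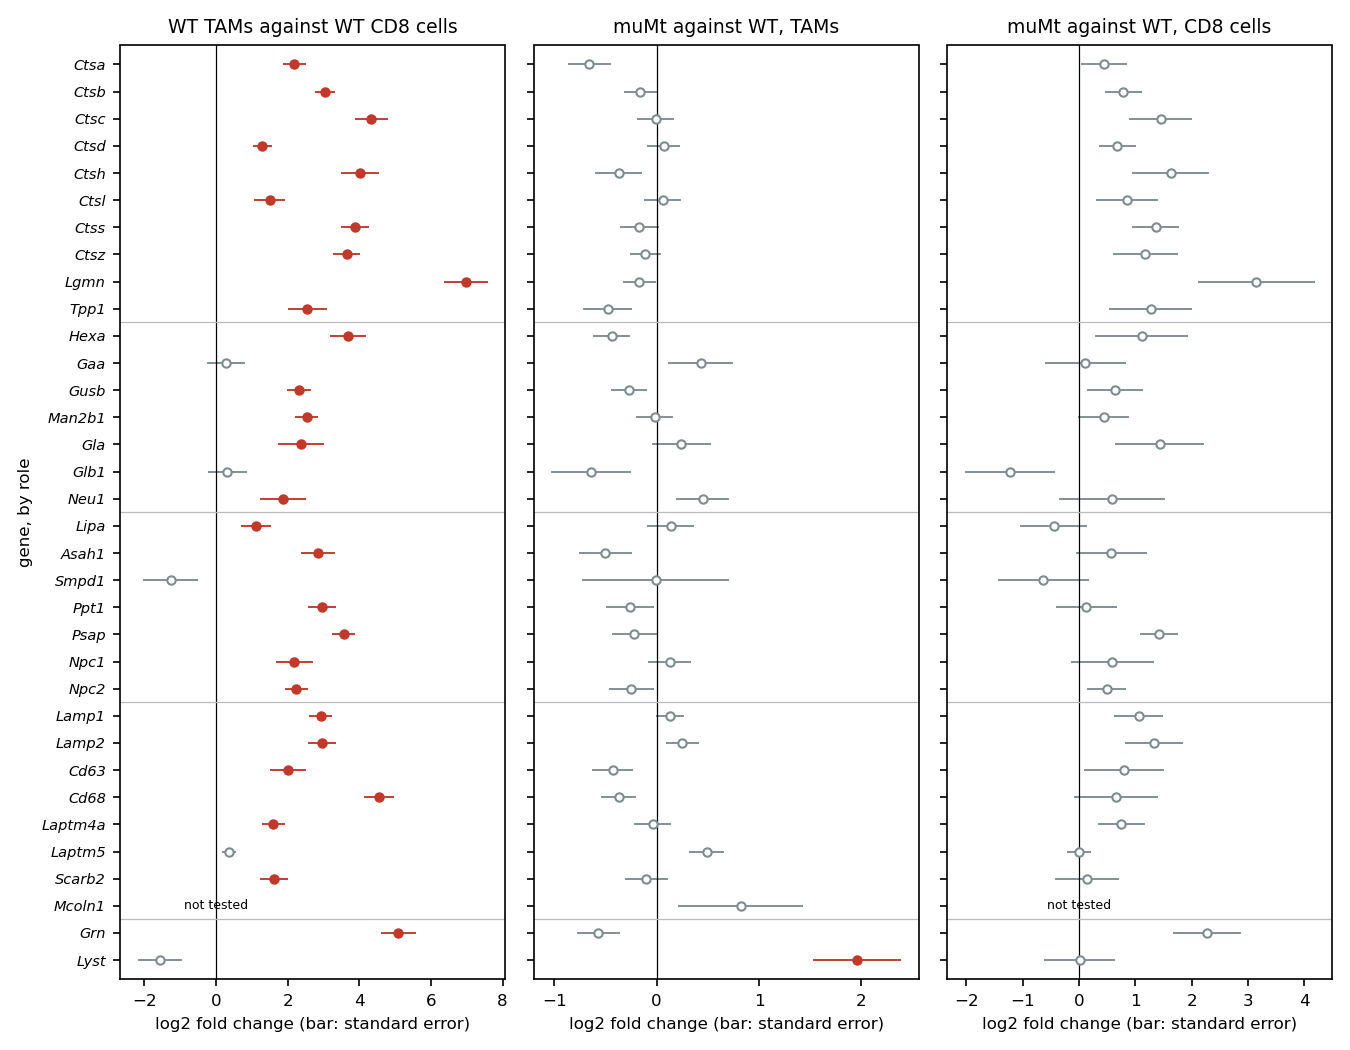
Log2 fold change of each lysosomal gene, by role, for WT TAMs against WT CD8+ T cells, *muMt*-/- against WT TAMs and *muMt*-/- against WT CD8+ T cells; bars are standard errors and filled red points have an adjusted p under 0.05. The values lie between -1.57 and 6.98, between -0.66 and 1.96 and between -1.23 and 3.15.

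In TAMs, few lysosomal genes differed detectably between mice with and without B cells. Of 34 tested in *muMt*-/- against WT, 1 rose and 0 fell by edgeR at an adjusted p under 0.05, and the gene that rose was *Lyst*; 2.05% of all 9469 genes were called, with 97 in each direction. Before adjustment 7 lysosomal genes had p under 0.05, as did 14.9% of all genes: *Lyst* and *Laptm5* higher, and *Ctsa*, *Hexa*, *Cd63*, *Cd68* and *Grn* lower. Fold changes were positive for 12 genes and negative for 22, with a median of -0.10 against -0.05 over all genes tested. When the depth of each library entered the fit the median of the lysosomal genes was 0.07 and 11 genes of the transcriptome were called in place of 194, so depth, which was lower in *muMt*-/- TAMs, and genotype cannot be fully told apart. The count of 194 also fell to 67 without *muMt*-/- replicate 4, to 87 without WT replicate 1 and to 125 without WT replicate 6, and was 338 without GABA-treated replicate 1.

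Among the proteases, *Ctsa*, which encodes cathepsin A, a carboxypeptidase that also shields β-galactosidase and neuraminidase, had the lowest unadjusted p. Its normalized number of molecules was 52.9, 63.1 and 81.2 in WT TAMs (lowest, median and highest of 6 libraries), 25.1, 41.7 and 58.4 in *muMt*-/- TAMs and 19.9, 46.1 and 59.5 with GABA. All 6 *muMt*-/- libraries lay below the WT median and 5 below every WT library, with replicate 4 the lowest. The log2 fold change was -0.66 (SE 0.21, adjusted p = 0.0873), and it ran from -0.75 to -0.55 over the alternatives with adjusted p from 0.0152 to 0.441. *Ctsa* was called without a filter, with the 12 libraries of the comparison alone and without GABA-treated replicate 1.

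*Tpp1*, a tripeptidyl peptidase, had 14.2, 22.0 and 25.4 normalized molecules in WT TAMs, 9.42, 13.4 and 26.4 in *muMt*-/- TAMs and 7.97, 20.1 and 21.6 with GABA. In *muMt*-/- TAMs 5 of 6 libraries lay below the WT median while replicate 6 exceeded every WT library (log2 fold change -0.48, SE 0.24, adjusted p = 0.345). *Ctss*, with the most molecules of all 34 genes, had 630, 745 and 993 in WT, 480, 665 and 934 in *muMt*-/- and 287, 757 and 928 with GABA. Its ranges overlapped, with 4 of 6 *muMt*-/- libraries below the WT median (-0.17, SE 0.19, adjusted p = 0.752). *Lgmn* had 137, 164 and 189 in WT, 114, 141 and 193 in *muMt*-/- and 88.4, 166 and 183 with GABA, again with 4 of 6 *muMt*-/- libraries below the WT median (-0.17, SE 0.16, adjusted p = 0.691). Across the 10 proteases 8 fold changes were negative and 2 positive, between -0.66 and 0.07 with a median of -0.17. *Ctsb*, *Ctsc*, *Ctsd*, *Ctsl* and *Ctsz* all lay between -0.16 and 0.07, and *Ctsh*, an aminopeptidase, had -0.37.

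The 7 glycosidases gave 3 positive and 4 negative fold changes with a median of -0.02. *Hexa*, the α subunit of β-hexosaminidase, had 35.1, 45.4 and 58.4 normalized molecules in WT TAMs, 27.4, 34.5 and 39.6 in *muMt*-/- TAMs and 29.2, 45.7 and 50.3 with GABA. All 6 *muMt*-/- libraries were below the WT median and 4 below every WT library (-0.44, SE 0.18, adjusted p = 0.210), whereas the GABA-treated median was near that of WT. *Neu1*, a sialidase that works in a complex with cathepsin A, leaned the other way, with 5.08, 9.30 and 10.9 in WT, 5.58, 12.8 and 16.4 in *muMt*-/- and 8.24, 10.8 and 13.1 with GABA. Here 5 of 6 *muMt*-/- libraries exceeded the WT median and replicate 4 was the exception (0.45, SE 0.26, adjusted p = 0.428). *Man2b1*, an α-mannosidase, had 48.6, 55.9 and 72.9 in WT, 45.4, 60.6 and 73.5 in *muMt*-/- and 30.5, 62.7 and 75.1 with GABA. Its *muMt*-/- and WT ranges nearly coincided (-0.02, SE 0.18, adjusted p = 0.980). *Gaa* (0.43), *Gla* (0.24), *Gusb*, a β-glucuronidase (-0.27), and *Glb1*, a β-galactosidase (-0.64), complete the role. Few molecules underlie *Gaa* (4 to 9 per WT and 3 to 11 per *muMt*-/- library) and *Glb1* (4 to 15 and 1 to 6).

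For the lipid genes 2 fold changes were positive and 5 negative, with a median of -0.22. *Asah1*, the acid ceramidase, had 37.1, 49.8 and 59.7 normalized molecules in WT TAMs, 19.5, 34.7 and 48.2 in *muMt*-/- TAMs and 7.97, 41.1 and 68.7 with GABA. All 6 *muMt*-/- libraries were below the WT median (-0.50, SE 0.26, adjusted p = 0.366), and the lowest value with GABA came from replicate 1. *Ppt1*, a palmitoyl-protein thioesterase, had 34.7, 47.7 and 62.1 in WT, 16.7, 39.9 and 76.1 in *muMt*-/- and 26.6, 44.5 and 65.9 with GABA, the *muMt*-/- group enclosing the whole WT range (-0.26, SE 0.23, adjusted p = 0.660). *Psap* had 346, 385 and 527 in WT, 238, 374 and 463 in *muMt*-/- and 108, 383 and 507 with GABA. Its medians were close and 3 of 6 *muMt*-/- libraries lay below every WT library (-0.22, SE 0.22, adjusted p = 0.717). *Smpd1* was near the detection limit, with 0, 1.22 and 3.95 in WT, 0, 1.17 and 5.65 in *muMt*-/- and 0, 1.23 and 3.02 with GABA, so a difference was not detectable at this depth (-0.01, SE 0.72, adjusted p = 0.998). *Lipa*, the acid lipase (0.14), and the cholesterol exporters *Npc1* (0.13) and *Npc2* (-0.25) had small values.

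The membrane proteins divided evenly, with 4 positive and 4 negative fold changes and a median of 0.04. *Laptm5* had 124, 161 and 173 normalized molecules in WT TAMs, 154, 213 and 322 in *muMt*-/- TAMs and 123, 168 and 304 with GABA. In *muMt*-/- TAMs 5 of 6 libraries exceeded every WT library (0.49, SE 0.17, adjusted p = 0.128), and with GABA replicate 1 stood alone at 304. Over the alternatives its adjusted p ran from 0.0432, without GABA-treated replicate 1, to 0.834. *Cd68* had 63.9, 83.1 and 102 in WT, 53.0, 67.2 and 75.6 in *muMt*-/- and 31.9, 55.2 and 69.0 with GABA. All 6 *muMt*-/- libraries lay below the WT median (-0.37, SE 0.17, adjusted p = 0.293). *Lamp1* had 136, 161 and 175 in WT, 147, 174 and 229 in *muMt*-/- and 148, 170 and 210 with GABA, with 4 of 6 *muMt*-/- libraries above the WT median (0.13, SE 0.14, adjusted p = 0.726). The remaining values were 0.25 for *Lamp2*, a receptor of chaperone-mediated autophagy, -0.43 for the tetraspanin *Cd63*, -0.04 for *Laptm4a*, -0.10 for *Scarb2*, which carries β-glucocerebrosidase to lysosomes, and 0.82 for *Mcoln1*. The last rests on 0 to 4 molecules per WT library and 0 to 3 per *muMt*-/- library, so its sign is uncertain.

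*Lyst* and *Grn* had fold changes of opposite sign. *Lyst*, at chr13:13590311-13778803 of GRCm38.p6, had 1.45, 1.79 and 3.63 normalized molecules in WT TAMs, 5.48, 6.71 and 20.9 in *muMt*-/- TAMs and 0.916, 4.67 and 7.11 with GABA. Every *muMt*-/- library exceeded every WT library on this scale, and replicate 4 was far above the others of its group. Before normalization the counts were 2 to 5 molecules per WT library (median 2.5) and 3 to 15 per *muMt*-/- library (median 6.5). With GABA they were 1 to 9 (median 4). *Lyst* thus rests on few molecules, and the WT and *muMt*-/- ranges overlap before normalization. *Lyst* rose by a log2 fold change of 1.96 (SE 0.43, adjusted p = 0.00828, 6 of 6 libraries), and over the alternatives the value ran from 1.57 to 2.17 and the adjusted p from 0.00126 to 0.226. The call was lost without *muMt*-/- replicate 4 (1.57, adjusted p = 0.0732) and with depth as a covariate (1.72, adjusted p = 0.226). DESeq2 gave 2.06 without an adjusted p, and with the stricter expression filter *Lyst* was not tested. *Grn* had 168, 195 and 234 in WT, 66.9, 131 and 199 in *muMt*-/- and 42.5, 146 and 179 with GABA. In *muMt*-/- TAMs 5 of 6 libraries were below every WT library and replicate 6 lay within the WT range (-0.57, SE 0.21, adjusted p = 0.158). Its adjusted p ran from 0.0163 to 0.706, and *Grn* was called without a filter, with the 12 libraries of the comparison alone and without GABA-treated replicate 1.

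**Figure D3:**
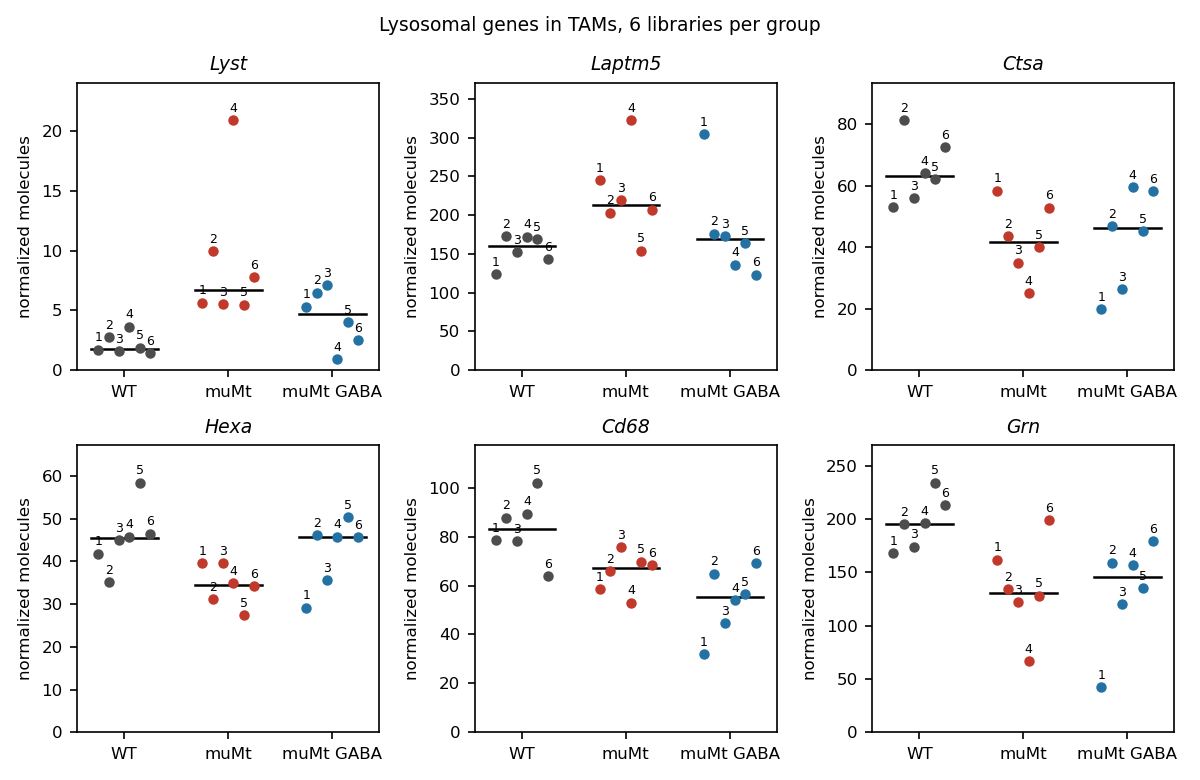
Normalized number of molecules of *Lyst*, *Laptm5*, *Ctsa*, *Hexa*, *Cd68* and *Grn* in each TAM library, by group; points carry the replicate number and lines are group medians of 6 libraries. *Lyst* lies at 1.45 to 3.63 in WT and at 5.48 to 20.9 in *muMt*-/- TAMs.

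The TAM groups also differed in transcripts outside the lysosome. Nuclear RNA (*Malat1* and *Neat1*, 2 of 2 detected and *Malat1* the more abundant) summed to 3129, 3619 and 3844 CPM in WT TAMs, 4578, 5726 and 10392 in *muMt*-/- TAMs and 3442, 3809 and 5183 with GABA. Replicate 4 held the highest nuclear value of the *muMt*-/- group, the highest *Lyst* value and the lowest lysosomal sum. Monocyte markers (3 of 3 detected, *Ccr2* the most abundant) summed to 1339, 1515 and 1848 CPM in WT, 1301, 3006 and 3109 in *muMt*-/- and 1619, 2063 and 2334 with GABA. *Malat1* (0.82), *Neat1* (1.22), *Ccr2* (0.84) and *Plac8* (0.90) rose in *muMt*-/- TAMs, while *Trem2* (-1.11), *Lyz2* (-0.74), *C1qb* (-0.62) and *C1qc* (-0.57) fell. Among the 20 macrophage markers these were the 4 called lower, and *Itgam* (0.66) was the 1 called higher; at an unadjusted p under 0.05 there were 8 lower and 5 higher, and the median was -0.17. Whether nuclear RNA, monocyte content or depth accounts for the values of *Lyst* or *Grn* was not tested.

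GABA did not measurably shift lysosomal genes in TAMs of *muMt*-/- mice. Of 34 tested against untreated *muMt*-/- TAMs, 0 were called by edgeR at an adjusted p under 0.05, where 0.0211% of all genes were. DESeq2 called 0, and 62 of all 9469 genes, but gave *Lyst* no adjusted p (-1.05, unadjusted p = 0.0246), so *Lyst* could not be called by it. Here and below, DESeq2 totals count all genes tested, including those given no adjusted p, which can understate the share called. Before adjustment *Lyst* alone had p under 0.05, as did 8.46% of all genes. Fold changes were positive for 17 genes and negative for 17, with a median of -0.00 against 0.06 over all genes tested. This split became 9 positive and 25 negative without GABA-treated replicate 4, and 22 and 12 without GABA-treated replicate 1. *Lyst* had a log2 fold change of -0.98 (SE 0.39, adjusted p = 0.446), with 5 of 6 GABA-treated libraries below the untreated median and 4 below every untreated library. Its adjusted p ran from 0.287 to 0.815 over the alternatives and its fold change from -1.17 to -0.60, the latter without untreated replicate 4. The number of genes called over the transcriptome was 2, but 36 without GABA-treated replicate 1, 12 without untreated replicate 5, 6 without WT replicate 1 and 5 without untreated replicate 2 or GABA-treated replicate 2.

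Compared with WT TAMs, the GABA-treated *muMt*-/- TAMs had no lysosomal gene called by edgeR with the expression filter. Without the filter edgeR called *Cd68* (-0.65, adjusted p = 0.0460). Of 34 tested, 0 were called by edgeR, where 0.0739% of all genes were, and DESeq2 called 1, *Cd68*, and 13 of all 9469 genes, with *Lyst* given no adjusted p. Unadjusted p was under 0.05 for 4, and for 7.02% of all genes: *Lyst* higher, and *Ctsa*, *Cd68* and *Grn* lower. The median was -0.12 against 0.02 over all genes tested, with 11 positive and 23 negative values. *Cd68* had -0.62 (SE 0.17, adjusted p = 0.239) with 6 of 6 libraries below the WT median, and its adjusted p ran from 0.0361 to 0.547 over the alternatives. *Ctsa* had -0.57 (SE 0.20, adjusted p = 0.497) and *Grn* -0.55 (SE 0.21, adjusted p = 0.540), each with 6 of 6 libraries below the WT median. *Lyst* had 0.98 (SE 0.47, adjusted p = 0.699), with 5 of 6 libraries above the WT median. This comparison shares its WT libraries with that of untreated *muMt*-/- mice, in which *Cd68* had -0.37, *Ctsa* -0.66, *Grn* -0.57 and *Lyst* 1.96.

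As a share of all molecules the lysosomal genes differed little between TAM groups. The sum was 1.87%, 2.14% and 2.52% in WT TAMs (lowest, median and highest), 1.53%, 1.94% and 2.33% in *muMt*-/- TAMs and 1.11%, 2.10% and 2.49% with GABA. The group ranges overlapped, and the means of 2.14% ± 0.233, 1.93% ± 0.265 and 1.92% ± 0.502 (SD, n = 6 each) differed by less than the spread between libraries. GABA-treated replicate 1 was the low library of its group, with the lowest value for 20 of the 34 genes and the lowest macrophage marker sum of all TAM libraries (10925 CPM). *muMt*-/- replicate 4 was lowest in its group for 13 genes. Proteases made up 1.24%, 1.11% and 1.11% in WT, *muMt*-/- and GABA-treated TAMs and membrane proteins 0.32%, 0.343% and 0.32%.

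In CD8+ T cells the lysosomal genes leaned upward without B cells, but no gene passed the adjusted threshold. Of 33 tested in *muMt*-/- against WT, 0 were called by edgeR at an adjusted p under 0.05, where 0% of all 6663 genes were, and DESeq2 also called 0. The unadjusted p was under 0.05 for 11 by edgeR, all higher, and for 6.17% of all genes. Those 411 genes also leaned upward, with 358 higher and 53 lower. By DESeq2 the unadjusted p was under 0.05 for 7 and for 222 of all 6663 genes. Fold changes were positive for 29 genes and negative for 4, with a median of 0.68 against 0.15 over all genes tested, and 0.58 against 0.06 with DESeq2 size factors. The 11 were the proteases *Ctsb*, *Ctsc*, *Ctsd*, *Ctsh*, *Ctss*, *Ctsz* and *Lgmn*, with *Psap*, *Lamp1*, *Lamp2* and *Grn*. By role the medians were 1.23 for proteases, 0.58 for glycosidases, 0.49 for lipid genes and 0.75 for membrane proteins, and all 10 proteases were positive. The negative values belonged to *Glb1* (-1.23), *Smpd1* (-0.63), *Lipa* (-0.45) and *Laptm5* (-0.00).

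Levels in CD8+ T cells were low and uneven. *Psap* had 5.16, 12 and 27.4 normalized molecules in WT, 15.7, 30.9 and 52.6 in *muMt*-/- and 14.1, 29.8 and 38.1 with GABA, with 6 of 6 *muMt*-/- libraries above the WT median (1.42, SE 0.33, adjusted p = 0.270). *Grn* had 0, 2.33 and 3.43 in WT, 3.33, 9.44 and 24.3 in *muMt*-/- and 0.620, 6.68 and 18 with GABA, with 4 *muMt*-/- libraries above every WT library (2.27, SE 0.60, adjusted p = 0.318). *Ctss* had 9.62, 11.1 and 59.5 in WT, 24.5, 36.7 and 119 in *muMt*-/- and 9.37, 43.7 and 52.0 with GABA (1.36, SE 0.41, adjusted p = 0.360). WT replicate 5 held the 59.5, and all 6 *muMt*-/- libraries exceeded the WT median. Without WT replicate 5, 13 genes of the transcriptome were called, among them *Ctss* (2.18, adjusted p = 0.00960) and *Psap* (1.80, adjusted p = 0.0109). Over the alternatives the adjusted p ran from 4.39e-05 to 1 for *Ctss*, from 0.000171 to 1 for *Psap* and from 0.000376 to 1 for *Grn*, the lowest always without a filter. *Lamp1*, which marks degranulating T cells when it reaches the surface, had 0, 6.07 and 15 in WT, 9.99, 14.2 and 23.3 in *muMt*-/- and 5.47, 11.9 and 37.5 with GABA (1.06, SE 0.43, adjusted p = 0.686, 6 of 6 above the WT median).

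*Lgmn* was counted 2 times in all WT CD8+ libraries, both in replicate 6, against 31 times in *muMt*-/- and 37 times with GABA. The ratios per molecule sequenced were 10.1 (95% exact interval 2.57 to 87.0) and 9.96 (2.57 to 85.3), which cover counting error only. Of the 31 molecules 15 came from *muMt*-/- replicate 1, where macrophage markers exceeded T cell markers. The fitted log2 fold change of *Lgmn* in *muMt*-/- against WT was 3.15, and 2.46 without that library, 5.35 without WT replicate 6 and 0.94 with the macrophage covariate. *Gla* was counted 3, 13 and 7 times, giving ratios to WT of 2.82 (0.775 to 15.4) and 1.26 (0.287 to 7.53). *Laptm5*, the lysosomal gene with the highest median in WT CD8+ T cells before division by length, had 34.6, 47.2 and 72.1 in WT, 37.6, 42.5 and 55.6 in *muMt*-/- and 27.9, 41.2 and 58.5 with GABA (-0.00, SE 0.21, adjusted p = 1). *Lyst*, the gene that rose in TAMs, had 1.14, 2.70 and 3.67 in WT, 0, 1.93 and 7.08 in *muMt*-/- and 0.781, 2.42 and 5.08 with GABA. Its CD8+ ranges overlapped throughout (0.01, SE 0.63, adjusted p = 1).

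The CD8+ libraries with more macrophage transcripts had more lysosomal ones. The lysosomal sum was 0.259%, 0.309% and 0.559% in WT, 0.382%, 0.513% and 1.02% in *muMt*-/- and 0.314%, 0.579% and 0.686% with GABA, and in each group the library with the highest macrophage marker sum had the highest lysosomal sum. These were WT replicate 5 (1682 CPM), *muMt*-/- replicate 1 (6549) and GABA-treated replicate 1 (3826). Of the 17 macrophage markers tested in *muMt*-/- against WT, 13 were higher at an unadjusted p under 0.05, with a median log2 fold change of 1.95. With the macrophage marker level as a covariate the median of the lysosomal genes was 0.15 in *muMt*-/- and 0.08 in GABA-treated mice against WT, beside 0.12 and 0.16 over all genes. In the first 10 of 33 changed sign, among them *Asah1* (-0.81), *Hexa* (-0.68), *Cd63* (-0.50), *Cd68* (-0.36), *Ctsc* (-0.25) and *Ctsh* (-0.06), which left 19 positive and 14 negative. With depth as a covariate these medians were 0.38 and 0.36, beside 0.06 and 0.04 over all genes, and that of GABA-treated against untreated mice was -0.27, beside -0.03. The WT CD8+ libraries were the shallowest, so depth and genotype cannot be fully told apart here either. Whether macrophage transcripts account for the difference was not tested. More macrophages in a sort and more lysosomal RNA per T cell cannot be told apart in pools of 100 cells.

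GABA brought no detectable lysosomal change in CD8+ T cells. Of 33 tested against untreated *muMt*-/- mice, 0 were called by edgeR, where 0% of all genes were, and DESeq2 also called 0. The 1 gene with an unadjusted p under 0.05, where 3.71% of all genes were, was *Laptm4a*, a small transporter-like protein of late endosomes (-0.86, SE 0.39, adjusted p = 0.999, 6 of 6 libraries below the untreated median). Fold changes were positive for 13 genes and negative for 20, with a median of -0.03 against 0.03 over all genes tested. The split depended on single libraries. It was 23 positive and 10 negative without untreated replicate 1, 20 and 12 without untreated replicate 5, and 8 and 25 without untreated replicate 2.

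Against WT, the CD8+ T cells of GABA-treated mice again had 0 of 33 lysosomal genes called by edgeR, where 0% of all genes were, and 0 by DESeq2. Unadjusted values under 0.05 numbered 9 by edgeR, all higher, against 6.89% of all genes (399 higher and 60 lower). By DESeq2 they numbered 5, against 222 of all 6663 genes. The 9 were *Ctsb*, *Ctsc*, *Ctsd*, *Ctss*, *Ctsz*, *Lgmn*, *Psap*, *Lamp1* and *Grn*. The median was 0.54 against 0.21 over all genes tested, and 0.43 against 0.06 with DESeq2 size factors. *Psap* had 1.19 (SE 0.33, adjusted p = 0.458, 6 of 6 libraries above the WT median) and *Grn* 1.87 (SE 0.62, adjusted p = 0.458, 5 of 6). With the macrophage covariate 10 of 33 changed sign, among them *Asah1* (-0.84), *Ctsh* (-0.71), *Hexa* (-0.39) and *Ctsc* (-0.06). With the depth covariate 8 did, among them *Cd63* (from 0.04 to -2.50), *Ctsl* (-1.33) and *Lamp1* (-0.13). The WT libraries are the same as in the comparison of untreated *muMt*-/- mice, in which *Psap* had 1.42 and *Grn* 2.27.

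The response to B cell loss was compared between the cell types as the TAM log2 fold change minus that of CD8+ T cells. Lysosomal genes tended below 0, with 27 of 33 negative and a median of -0.94 against -0.30 over all genes tested, and -0.75 against -0.11 with DESeq2 size factors. By edgeR 0 were called at an adjusted p under 0.05, where 0.0118% of all genes were, and by DESeq2 3, where 38 of 8477 genes were and *Lyst*, *Tpp1* and *Hexa* received no adjusted p. The unadjusted p was under 0.05 for 14, and for 10.1% of all genes (705 lower and 148 higher). Of the 14, 13 were lower, 8 of them proteases, and *Lyst* was higher (1.90). *Grn* had -2.89 (SE 0.67, adjusted p = 0.106), *Psap* -1.67 (SE 0.43, adjusted p = 0.140) and *Lgmn* -3.48 (SE 1, adjusted p = 0.217), and these are the 3 that DESeq2 called. Over the alternatives their adjusted p ran from 0.0186 to 0.239, from 0.0461 to 0.314 and from 0.0307 to 0.327. Macrophage markers gave a median of -2.25 with 20 of 20 negative.

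For the response to GABA, the difference between cell types had 0 of 33 lysosomal genes called by edgeR, where 0% of all genes were, and 0 by DESeq2. An unadjusted p under 0.05 was also found for 0 of them, and for 4.53% of all genes. The median was 0.05 against 0.01 over all genes tested, with 18 values positive and 15 negative.

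A further 111 lysosome genes outside the 34 were read alongside them, namely the proton pump, other hydrolases, other membrane proteins and transporters, sorting and activating factors, transcription and mTORC1 regulators, and cathepsin inhibitors. In TAMs 99 were tested and 0 were called by edgeR in any comparison. Of all genes 2.05%, 0.0211% and 0.0739% were called in *muMt*-/- against WT, GABA-treated against untreated and GABA-treated against WT. At an unadjusted p under 0.05 there were 12, 5 and 8 in the same order, where 14.9%, 8.46% and 7.02% of all genes were. In CD8+ T cells 71 were tested and 0 called, where 0% of all genes were in each comparison. At an unadjusted p under 0.05 there were 8, 4 and 5, where 6.17%, 3.71% and 6.89% of all genes were. Between WT TAMs and CD8+ T cells 42 of 96 were higher in TAMs and 5 lower, with a median of 1.3, where 16.8% of all genes were higher and 5.99% lower. The proton pump had 12 of 17 higher, the other hydrolases 16 of 29 with 1 lower, the other membrane proteins and transporters 5 of 18 with 3 lower, the cathepsin inhibitors 2 of 4 with 1 lower, the sorting factors 4 of 15 and the regulators 3 of 13.

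Promoters were searched for CACGTG, the E-box bound by TFEB and related factors, and for TCACGTGA, a longer palindrome that contains it. Of the 34 genes, 30 had a promoter entry, taken as 250 bases before to 50 bases after the transcription start. CACGTG occurred in 9 of these (*Ctsa*, *Ctsd*, *Ctsl*, *Lgmn*, *Gaa*, *Gla*, *Glb1*, *Lamp1* and *Mcoln1*), and in 8.09% of 27025 genes with a promoter entry. TCACGTGA occurred in *Ctsa*, *Ctsd*, *Gla* and *Mcoln1*, and in 1.12% of all such genes. The *Lyst* promoter held 0 copies of CACGTG. The 4 windows of 60 bases that carry the longer motif are shown because they locate it within lysosomal promoters; capitals mark TCACGTGA, and coordinates are those of GRCm38.p6. *Ctsa* (chr2:164833742-164833801, plus strand) and *Gla* (chrX:134601184-134601243, minus strand) each hold 2 copies, and *Ctsd* (chr7:142387893-142387952, minus strand) and *Mcoln1* (chr8:3500447-3500506, plus strand) 1 each. A match describes the sequence only, and binding was not analysed here.
Ctsa: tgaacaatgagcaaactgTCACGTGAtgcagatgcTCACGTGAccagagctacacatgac
Gla: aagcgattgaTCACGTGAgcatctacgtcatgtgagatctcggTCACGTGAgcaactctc
Ctsd: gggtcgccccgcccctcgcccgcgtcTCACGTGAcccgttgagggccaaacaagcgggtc
Mcoln1: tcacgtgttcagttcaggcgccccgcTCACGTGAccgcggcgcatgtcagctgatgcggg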

How the data were processed

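The deposited table gives counts of molecules per gene after the authors collapsed reads by molecular barcode. Reads were aligned with STAR 2.5.4b to mm10, and the study used the Wald test of DESeq2 1.30.1 at a p under 0.05. Its description of that test names no adjustment. Here the counts were tested with edgeR 4.0.16 (quasi-likelihood F-test, TMM scaling, limma 3.58.1, R 4.3.3) on the 18 libraries of a cell type, or on all 36 for comparisons between cell types. Genes were kept with a mean normalized number of molecules above 1 by DESeq2 size factors, and p was adjusted over all genes tested by the Benjamini-Hochberg method with a threshold of 0.05. The normalized number of molecules divides a count by the library's DESeq2 1.42.0 size factor within a cell type, and spike-in molecules were not used here.

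The lysosomal genes and the lists of other lysosome genes and markers were chosen with earlier results of these data known. A marker gene of these lists is not reported. Full values were given for genes with an adjusted p under 0.05 within a cell type, the 2 of each role with the lowest unadjusted p in TAMs of *muMt*-/- against WT mice, the gene of each role with the most normalized molecules in WT TAMs (not divided by length), and the 2 largest and 2 smallest differences between WT TAMs and CD8+ T cells. Other genes were singled out after their values were seen. The alternatives were DESeq2 size factors in edgeR, the DESeq2 Wald test with adjusted or unadjusted p, the stricter edgeR filter (filterByExpr), no filter, only the 12 libraries compared, a replicate block, library depth (log2) as a covariate, the macrophage marker level as a covariate for CD8+ T cells, no scaling for TAMs against CD8+ T cells, and leaving out each library in turn. Transcript lengths are those of GENCODE M21, and overlaps and coordinates are RefSeq on GRCm38.p6. Tables came from pandas 2.3.3 under Python 3.11.15, exact intervals from scipy 1.17.1, and figures from matplotlib 3.10.9; numpy was 2.4.6.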

Additional observations from a re-analysis of the deposited data

Results flagged for a closer look

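Each of the 16 lysosomal genes reported in full, and the summed level of the 34, was checked in each group for a library far from the other 5 (Dixon ratio of gap to range above its critical value), which gave 7 of 102 checks, all 7 for single genes. Chance flags about 1 in 20 checks. In *muMt*-/- TAMs *Lyst* stood at 20.9 normalized molecules in replicate 4, where the others lay between 5.48 and 9.95. *Laptm5* stood at 304 in GABA-treated TAM replicate 1, against 123 to 176 in the others. In WT CD8+ T cells *Ctss* stood at 59.5 in replicate 5 (others 9.62 to 13.3), *Hexa* at 4.57 in replicate 5 (others 0 to 1.5) and *Neu1* at 5.50 in replicate 1 (others 0 to 0.751), the last 2 resting on 4 and 3 molecules with 4 libraries at 0. *Lgmn* had 2 molecules in WT CD8+ replicate 6 and 0 in the other 5 libraries, where any molecule would pass the check, so it says nothing of that library. In *muMt*-/- CD8+ T cells *Ctss* stood at 119 in replicate 1, against 24.5 to 52.3. The CD8+ libraries with high *Ctss* were those with the most macrophage marker transcripts in their groups, and whether this accounts for the values was not tested.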

How the results depend on the processing

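The 51 single-gene results, namely those with an unadjusted p under 0.05 within a cell type or for the difference of responses and the 2 largest and 2 smallest differences between WT TAMs and CD8+ T cells, kept their direction and side of the threshold in 927 of 987 alternatives; 2 lost a call, 52 gained one and 6 reversed. These 51 were picked from the same data by p or by size of difference, which makes reversals rare. Most were not called in the main fit, where staying uncalled counts as kept. The share kept is therefore no measure of how robust they are. Over all lysosomal genes 12 changed sign in some alternative in *muMt*-/- against WT TAMs, among them *Ctss* (-0.29 to 0.07), *Psap* (-0.31 to 0.16), *Man2b1* (-0.08 to 0.05) and *Smpd1* (-0.44 to 0.42). In CD8+ T cells 15 did so in *muMt*-/- and 20 in GABA-treated mice against WT, not only near 0: with the macrophage covariate *Hexa* went from 1.11 to -0.68 and *Asah1* from 0.57 to -0.81 in the first, and *Hexa* from 1.25 to -0.39 and *Ctsh* from 0.92 to -0.71 in the second. For GABA-treated against untreated mice 21 changed sign in TAMs and 20 in CD8+ T cells, and for GABA-treated against WT TAMs 10 did. Where a value changed, the cause was not tested. In TAMs, *muMt*-/- against WT gave 194 genes, and 1111 by the DESeq2 Wald test with unadjusted p, 295 with filterByExpr, 343 without a filter, 323 with 12 libraries, 11 with the depth covariate and 67 to 338 on leaving out each library. The lysosomal count of 1 became 0 by the Wald test with adjusted p (*Lyst* received none), 6 unadjusted, 0 with filterByExpr (*Lyst* not tested), 3 without a filter, 3 with 12 libraries, 0 with the depth covariate and 0 to 4 on leaving out each library, and the median 0.07 with the depth covariate. GABA-treated against untreated gave 2 genes, and 62 and 580 by the Wald test adjusted and unadjusted, 51 without a filter, 5 with the depth covariate and 2 to 36 on leaving out each library, with 1 lysosomal gene by the unadjusted Wald test. GABA-treated against WT gave 7, and 13 and 440 by the Wald test, 2 with filterByExpr, 63 without a filter, 4 with 12 libraries and 2 to 9 on leaving out each library, with 1, 3 and 1 lysosomal genes by the adjusted Wald test, the unadjusted Wald test and without a filter. In CD8+ T cells, *muMt*-/- against WT gave 0 genes, and 222 unadjusted by the Wald test, 72 without a filter, 1 with 12 libraries and 0 to 13 on leaving out each library; lysosomal genes were 7, 5 (without a filter) and 0 to 2. The lysosomal median was 0.15 with the macrophage covariate and 0.38 with the depth covariate, and with the former *Ctsc* (-0.25) and *Ctsh* (-0.06) reversed. GABA-treated against untreated gave 0, and 133 unadjusted, 11 without a filter, 6 with the depth covariate, 1 with the macrophage covariate and 0 to 1 on leaving out each library, with 1 lysosomal gene unadjusted and a lysosomal median of -0.27 with the depth covariate. GABA-treated against WT gave 0, and 1 with DESeq2 size factors, 1 and 222 by the Wald test, 64 without a filter, 1 with 12 libraries, 3 with the macrophage covariate and 0 to 2 on leaving out each library; lysosomal genes were 5 unadjusted and 5 without a filter, the median was 0.08 with the macrophage and 0.36 with the depth covariate, and *Ctsc* (-0.06, macrophage covariate) and *Lamp1* (-0.13, depth covariate) reversed. WT TAMs against CD8+ T cells gave 1928, and 1166 with filterByExpr and 8220 without scaling. Without scaling the lysosomal median was 4.38 beside 2.44 over all genes, where it was 2.38 beside 0.36 with scaling. *Smpd1* (0.75) and *Lyst* (0.48) reversed there and are among the 6 reversals. Removing the scaling moves all genes alike, so these reversals say nothing of the 2 genes themselves. The difference of responses to B cell loss gave 1, and 0 with DESeq2 size factors, 38 by the adjusted Wald test with 3 lysosomal genes, and 0 with filterByExpr. Without *Ctss* the summed level was 1.73% in WT and 1.58% in *muMt*-/- TAMs. A replicate block gave 201, 4 and 6 genes in the 3 TAM comparisons, 0, 2 and 1 in the CD8+ comparisons and 2 for the difference of responses. Whether replicate numbers pair was checked by correlation, and in no 2 groups did all 6 numbers exceed 0.1. Between groups of a cell type the values ran from -0.298 to 0.417 and at most 1 of 6 libraries correlated best with its own number. Between TAMs and CD8+ T cells they ran from 0.00131 to 0.0571 in WT, from -0.044 to 0.122 in *muMt*-/- and from 0.00562 to 0.301 with GABA, with 1, 3 and 3 of 6 best with their own number, so a shared mouse is not excluded. Depth limits the CD8+ results most, where the 34 genes gave 70 to 672 molecules per library, and small differences there were not detectable.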
